A study of Mus musculus with 27 samples.

Results

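The 10 genes described here are the transcription factor gene Atf4, 8 genes known as its stress targets (Ddit3, Trib3, Asns, Chac1, Gdf15, Ddit4, Sesn2 and Psat1) and the liver hormone gene Fgf21. They were taken by gene symbol from a table of 54532 genes measured in mouse liver. All 10 passed the filter on low values, as did 12376 genes in all. A second gene ID with the symbol Ddit3 had no counts in any library and was set aside.

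The study followed liver regeneration in wild-type C57/BL6J mice by RNA sequencing, in 27 libraries. Their 5 groups were sham surgery (sham, n = 5, time of sampling not given), 24 h after removal of 70% of the liver with etomoxir (PHx24_ETO, n = 4), 24 h after the same resection without it (PHx24, n = 7), 48 h after resection with etomoxir (PHx48_ETO, n = 4) and 48 h without it (PHx48, n = 7). Etomoxir irreversibly inhibits carnitine palmitoyltransferase 1, the enzyme that starts the entry of long-chain fatty acids into mitochondria. Mice were injected intraperitoneally with 12.5 mg/kg of it 4 h ahead of surgery, and those kept to 48 h received another dose 24 h after surgery. Whether the other mice received a vehicle is not stated in the labels. They also leave unstated whether libraries stand for separate animals, and the p-values reflect only the spread among libraries. There was no sham group with etomoxir, so an effect of the drug without resection was not measured.

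ATF4 is the effector of the integrated stress response, in which kinases that sense amino acid shortage, unfolded protein in the endoplasmic reticulum, heme shortage or viral RNA phosphorylate the translation factor eIF2alpha. General translation then falls while Atf4 mRNA is translated more, so that the amount of ATF4 protein is set in large part after transcription. ATF4 raises genes for amino acid synthesis and uptake, for the brake on the response itself (CHOP, encoded by Ddit3, and Trib3) and for the secreted hormones FGF21 and GDF15. In liver, Fgf21 is also a target of the fatty acid receptor PPARA and rises on fasting.

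The libraries held 14903757 to 18446372 counts, and hepatocyte markers were abundant in all of them (summed FPKM of 10 markers at least 25023). FPKM are read counts corrected for gene length and library size, here scaled by the authors to a typical gene. Muscle or pancreas RNA stood out in 4 libraries, called mixed-tissue libraries here: sham 1, PHx24 1 and PHx48 3 held summed skeletal muscle markers of 4818, 1794 and 579 FPKM, and sham 2 held summed exocrine pancreas markers of 1140 FPKM. PHx48 3 also held pancreas markers, at 177 FPKM against a PHx48 median of 9.98 FPKM. The library PHx24_ETO 2 stood apart from its group, with pairwise correlations down to 0.9256 within PHx24_ETO. In these bulk samples fewer cells of a type and less RNA per cell cannot be told apart.

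ATF4 binds, with a C/EBP family partner, a composite element whose core is TGATGNAA (N is any base). The promoter windows of RefSeq (build GRCm38.p6, 250 bases before to 50 after the start of transcription) covered all 10 genes, and this core was found on either strand in 4 of them. Of 32851 such windows in the genome, 1304 (3.969%) held it. The 4 matches are printed because they show which base fills the N, each with 10 flanking bases, in the direction of the core, 5′ to 3′, with the core in capitals.
Trib3: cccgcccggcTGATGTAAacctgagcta
Asns: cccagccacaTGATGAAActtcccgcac
Chac1: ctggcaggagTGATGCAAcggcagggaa
Fgf21: cctggacggaTGATGCAAtgggggggtc
Chac1 and Fgf21 carried the same 8 letters, and the other two differed from them at the N alone. The match lay at chr2:152344039-152344046 for Trib3, 15 to 22 bases after the RefSeq start, and at chr6:7693225-7693232 for Asns, 16 to 23 bases before it. It lay at chr2:119351049-119351056 for Chac1, 186 to 193 bases before the start, and at chr7:45615622-45615629 for Fgf21, 132 to 139 bases before it. Trib3, Asns and Fgf21 lie on the minus strand and Chac1 on the plus strand. A match is a description and not a site of binding, and no match in the other 6 genes says only that these letters are not in those windows.

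The 250 bases before the start of Fgf21 (chr7:45615491-45615740, minus strand, GRCm38.p6) are printed because the widest differences under etomoxir were those of this gene. In this reading direction the core appears as its reverse complement, in capitals.
Fgf21: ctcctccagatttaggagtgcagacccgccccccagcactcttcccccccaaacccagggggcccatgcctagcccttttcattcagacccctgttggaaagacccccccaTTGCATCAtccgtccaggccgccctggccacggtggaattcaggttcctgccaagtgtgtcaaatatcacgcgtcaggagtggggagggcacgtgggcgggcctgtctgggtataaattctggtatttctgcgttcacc

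A gene was called where edgeR's quasi-likelihood test, fitted to the counts of all 27 libraries, gave an adjusted p under 0.05 over the 12376 genes (Benjamini-Hochberg). In PHx24 against sham, 3 of the 10 genes were higher (Ddit3, Gdf15 and Psat1) and 2 lower (Atf4 and Chac1), where 19.1% of all genes tested were higher and 15.8% lower. In PHx48 against sham, 2 were higher (Ddit3 and Gdf15) and 1 lower (Chac1), against 19.5% and 17% of all genes. In PHx48 against PHx24, 2 were higher (Atf4 and Ddit4) and none lower, against 6.19% and 5.41% of all genes. In both comparisons with sham the shares lie near the background, so those counts are not a result about the 10 genes as a group. In PHx48 against PHx24 the share that was higher lies above it, on a count of 2.

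Under etomoxir at 24 h (PHx24_ETO against PHx24), 1 of the 10 genes was called higher (Atf4) and none lower, against 1.58% and 1.33% of all genes (2.9% in either direction). All 10 fitted log2 fold changes were above 0, against 50.9% of all genes, and their median was 0.71, against 0.0062 over all genes. At an unadjusted p under 0.05, 6 of the 10 were higher, where 19.4% of all genes passed in either direction. At 48 h (PHx48_ETO against PHx48) none was called, against 0.129% of all genes higher and 0.0808% lower (0.21% in either direction). At an unadjusted p under 0.05, 2 of the 10 (Atf4 and Asns) were lower, where 8.11% of all genes passed. DESeq2 called 0 of the 10 and 0.549% of all genes. The median log2 fold change of the 10 at 48 h was 0.0049. In PHx48_ETO against PHx24_ETO, 2 were lower (Asns and Psat1) and none higher, against 7.73% and 7.31% of all genes, with a median log2 fold change of -0.83 against -0.0098 over all genes. The difference between the etomoxir effects (48 h minus 24 h) was called for none of the 10 and for 0.0162% of all genes. At an unadjusted p under 0.05 it was below 0 for 2 of the 10, where 8.6% of all genes passed in either direction. DESeq2 called 1 of the 10 (Atf4) and 0.339% of all genes. The comparisons with PHx24_ETO rest in part on the library PHx24_ETO 2. Without it none of the 10, Atf4 included, was called in PHx24_ETO against PHx24, and 138 in place of 359 of all genes were. This drop was not particular to it: 143 genes were called without PHx24_ETO 3, 167 without PHx24 4 and 178 without PHx24 3. Leaving out PHx24_ETO 1 raised the number to 1198. Without PHx24_ETO 2 the log2 fold changes of the 10 were no longer all above 0. Psat1 was at -0.042, Gdf15 at 0.023 and Sesn2 at 0.19, while Trib3 (0.80), Chac1 (1.33) and Fgf21 (1.81) stayed further above 0.

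**Figure D1:**
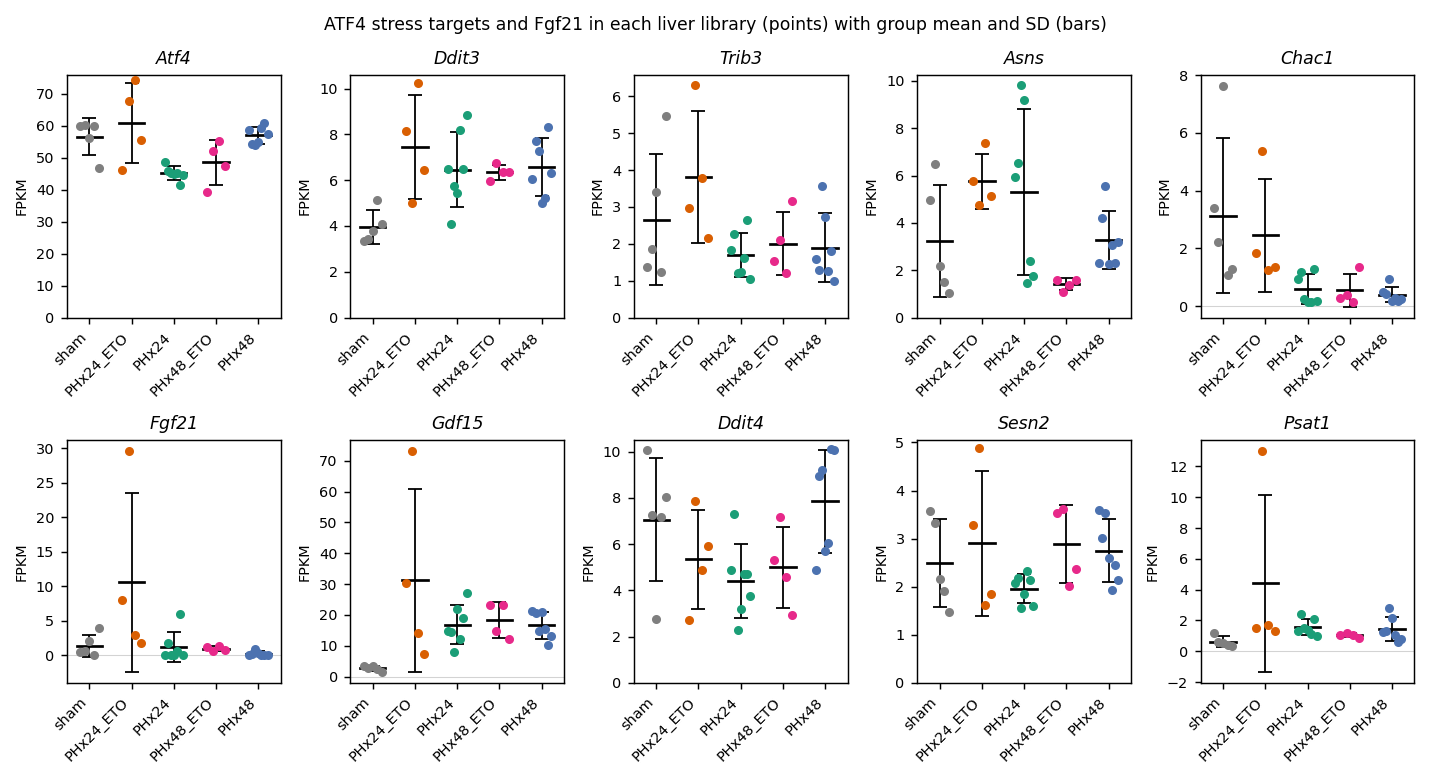
FPKM (vertical axis) of each of the 10 genes in every library (points), by group (horizontal axis), with the group mean and SD (black). Gdf15 is low in all 5 sham libraries, and a single PHx24_ETO library lies far above the others for Fgf21, Gdf15 and Psat1.

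Atf4 itself moved little. Its level was lowest in PHx24, and etomoxir went with a higher level at 24 h and, short of the threshold, a lower one at 48 h. In the 7 PHx24 libraries the lowest Atf4 level was 41.4, the median 45.2 and the highest 48.6 FPKM, against 59.8, 60.3, 56.1, 60.0 and 46.7 FPKM in sham libraries 1 to 5. The sham library 5 alone fell into the PHx24 range. The log2 fold change was -0.31 (SE 0.097, adjusted p = 0.0147). This call was lost without the 4 mixed-tissue libraries (-0.27, adjusted p = 0.0996) and with scaling to library totals (-0.21, adjusted p = 0.141). In PHx48 the Atf4 level was 53.8 to 60.7 FPKM with a median of 57.2, so that every PHx48 library lay above every PHx24 library (log2 fold change 0.33, SE 0.089, adjusted p = 0.0149).

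Atf4 stood at 46.0, 67.8, 74.2 and 55.6 FPKM in PHx24_ETO libraries 1 to 4, a mean of 60.9 ± 12.6, against 45.2 ± 2.12 FPKM in PHx24 (SD). Libraries 2, 3 and 4 were above the whole PHx24 range and library 1 within it, and the spread was wider with etomoxir than without. On the log2 scale the fold change was 0.41 (SE 0.10, adjusted p = 0.0300). Leaving out PHx24_ETO 2 gave 0.36 (adjusted p = 0.114), leaving out PHx24_ETO 3 gave 0.30 (adjusted p = 0.146), and leaving out PHx24 3, PHx24 4 or PHx24 6 also took the adjusted p past 0.05. With all libraries kept, the call was lost with library totals (adjusted p = 0.0773), with no filter (0.0572), with the replicate number as a block (0.0859) and with the 2 groups alone (0.127). With the 2 groups alone, 0 of all 12376 genes were called, so that loss is not particular to Atf4. The Atf4 call was kept under 26 of the 35 alternatives. Many of the 35 leave out a library of neither group, which bears on this comparison mainly through the shared spread and scaling.

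At 48 h the 4 PHx48_ETO libraries had 39.2, 52.2, 55.2 and 47.5 FPKM of Atf4, against a median of 57.2 FPKM in PHx48. Only PHx48_ETO 3 reached the PHx48 range. Its log2 fold change was -0.24 (95% interval -0.45 to -0.018), with an adjusted p of 0.581. The etomoxir effect on Atf4 at 48 h minus that at 24 h was -0.65 (SE 0.15, adjusted p = 0.206 by edgeR). DESeq2 gave the same size with an adjusted p of 0.0187, and edgeR without PHx24_ETO 1 gave -0.76 with an adjusted p of 0.00377.

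Ddit3, the gene of the transcription factor CHOP, which ATF4 induces and which pushes stressed cells towards death, was higher after resection at both times. PHx24 libraries had 4.08 to 8.84 FPKM with a median of 6.50, and PHx48 libraries 4.99 to 8.33 FPKM with a median of 6.30. Sham libraries 1 to 5 had 3.35, 3.42, 3.77, 5.13 and 4.10 FPKM. Sham 4 overlapped both resected groups, and sham 5 just reached the PHx24 range. The fitted difference on the log2 scale was 0.73 in PHx24 (SE 0.18, adjusted p = 0.00282) and 0.75 in PHx48 (SE 0.18, adjusted p = 0.00204), each against sham. Without the 4 mixed-tissue libraries both calls were lost (0.59, adjusted p = 0.0632, and 0.58, adjusted p = 0.0666).

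Etomoxir gave no called difference in Ddit3. Its level averaged 7.46 ± 2.27 FPKM in PHx24_ETO and 6.46 ± 1.63 in PHx24, a log2 fold change of 0.19 (95% interval -0.20 to 0.58). It averaged 6.35 ± 0.329 FPKM in PHx48_ETO and 6.56 ± 1.26 in PHx48. The library PHx24_ETO 2, which was the highest of its group for 7 of the 10 genes, had the lowest Ddit3 level of its group (4.99 FPKM). Exons of Ddit3 share 68 bases with Mars on the other strand and 13 bases with Gm4189, and the library kit does not mark strand, so these genes can share reads.

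Trib3 encodes a pseudokinase that ATF4 and CHOP induce and that damps both. Its level was 1.03 to 2.63 FPKM in PHx24 (median 1.63) and 1.0 to 3.58 FPKM in PHx48 (median 1.60). Sham libraries 1 to 5 had 1.36, 1.85, 3.39, 1.23 and 5.45 FPKM, a range that overlapped both resected groups. Neither comparison with sham passed the test (adjusted p = 0.204 in PHx24 and 0.370 in PHx48). In PHx24_ETO, Trib3 stood at 2.96, 6.32, 3.79 and 2.17 FPKM, with libraries 1, 2 and 3 above the whole PHx24 range. The log2 fold change against PHx24 was 1.16 (SE 0.39, 95% interval 0.35 to 1.96) with an adjusted p of 0.0951. Without PHx24_ETO 2 it was 0.80 (adjusted p = 0.382). At 48 h the Trib3 mean was 2.01 ± 0.858 FPKM in PHx48_ETO and 1.90 ± 0.927 in PHx48, a difference smaller than its SE.

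Among the genes of amino acid metabolism, Asns encodes asparagine synthetase, the classical target of the amino acid branch of the response. Its PHx24 libraries fell into separate sets: libraries 1 to 4 had 5.96, 6.53, 9.82 and 9.21 FPKM and libraries 5 to 7 had 1.45, 2.38 and 1.74 FPKM. Sham libraries were divided too, with 4.95 and 6.51 FPKM in sham 1 and sham 2, both mixed-tissue libraries, and 2.19, 1.52 and 1.06 FPKM in sham 3 to 5. The log2 fold change of PHx24 against sham was 0.70 (SE 0.45, adjusted p = 0.236). Without the 4 mixed-tissue libraries it was 1.71 (SE 0.50, adjusted p = 0.0135), and the part of the admixed RNA in the level was not tested.

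Asns was more even with etomoxir, and its level there fell between the 2 times. It stood at 5.77, 4.75, 7.36 and 5.12 FPKM in PHx24_ETO and at 1.59, 1.07, 1.37 and 1.60 FPKM in PHx48_ETO. Every PHx48_ETO library was below every PHx24_ETO library, and the log2 fold change was -2.01 (SE 0.56, adjusted p = 0.0148). This call was kept under all 35 alternatives run, with adjusted p between 0.00134 and 0.0455. All 4 PHx48_ETO libraries also lay below the 7 PHx48 libraries (2.28 to 5.54 FPKM, median 3.05), where the log2 fold change was -1.22 (95% interval -2.26 to -0.18) with an adjusted p of 0.538. In PHx24_ETO against PHx24 the means were 5.75 ± 1.15 and 5.30 ± 3.50 FPKM, a difference smaller than its SE.

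Psat1 encodes phosphoserine aminotransferase, a step of serine synthesis. It was low throughout, with 1.01 to 2.42 FPKM in PHx24 (median 1.40) against 1.21, 0.568, 0.565, 0.417 and 0.359 FPKM in sham. Sham 1 alone reached the PHx24 range. Its log2 fold change was 1.31 (SE 0.50, adjusted p = 0.0456), close to the threshold: 17 of the 35 alternatives kept the call, and leaving out sham 2, 3, 4 or 5, for instance, took the adjusted p to between 0.0849 and 0.111. In PHx48 against sham it was 1.19 (SE 0.50, adjusted p = 0.0655), and 7 of the 35 alternatives called it, among them DESeq2 (adjusted p = 0.0315) and the replicate block (0.0370).

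In PHx24_ETO, Psat1 had 1.54, 13.0, 1.72 and 1.34 FPKM. Library 2 stood far above the others, which lay within the PHx24 range. The log2 fold change against PHx24 was 1.48 (SE 0.48, adjusted p = 0.0893), and without PHx24_ETO 2 it was -0.042 (adjusted p = 0.978). In PHx48_ETO, Psat1 had 1.07, 1.2, 1.06 and 0.881 FPKM. All 4 values were below the PHx24_ETO values, and the log2 fold change was -2.05 (SE 0.58, adjusted p = 0.0182). Without PHx24_ETO 2 this fell to -0.53 (adjusted p = 0.457).

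Chac1 encodes a gamma-glutamyl cyclotransferase that degrades glutathione and is induced by ATF4. It was lower after resection at both times. PHx24 libraries had 0.139 to 1.29 FPKM with a median of 0.235, and PHx48 libraries 0.182 to 0.935 FPKM with a median of 0.287. Sham libraries 1 to 5 had 3.39, 2.23, 7.64, 1.08 and 1.30 FPKM. All PHx48 libraries were below all sham libraries, whereas PHx24 2 and PHx24 6 lay above the lowest sham library, sham 4. The level was 5.31-fold lower in PHx24 (log2 fold change -2.41, SE 0.62, adjusted p = 0.00346) and 7.71-fold lower in PHx48 (-2.95, SE 0.63, adjusted p = 0.000631), each against sham. Both calls held under all 35 alternatives.

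With etomoxir at 24 h the level of Chac1 was nearer to sham: 1.83, 5.37, 1.27 and 1.36 FPKM in PHx24_ETO libraries 1 to 4, against the PHx24 median of 0.235 FPKM. PHx24_ETO 3 alone lay just within the PHx24 range. The log2 fold change was 2.05 (SE 0.64, 95% interval 0.71 to 3.39) with an adjusted p of 0.0766 by edgeR and 0.0363 by DESeq2. Without PHx24_ETO 2 it was 1.33 (adjusted p = 0.378). In PHx48_ETO, Chac1 had 0.269, 0.385, 0.158 and 1.37 FPKM, against 0.394 ± 0.266 FPKM in PHx48, a difference smaller than its SE. Its counts were small, with 4 to 36 reads per library in PHx48_ETO.

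Of the secreted hormones, Fgf21 signals through FGFR1 and beta-klotho to fat tissue and brain. It had the widest relative spread of the 10 genes in PHx24, PHx48 and sham, but not in PHx24_ETO, where Psat1 did, or in PHx48_ETO, where Chac1 did. PHx24_ETO libraries 1 to 4 had 8.05, 29.6, 2.95 and 1.78 FPKM. PHx24 libraries had 0, 1.74, 0.0674, 0.122, 0.597, 6.02 and 0 FPKM in the order 1 to 7. Every PHx24_ETO library lay above 6 of the 7 PHx24 libraries, and PHx24 6 lay within the PHx24_ETO range. The counts ranged from 25 to 462 reads in PHx24_ETO and from 0 to 87 in PHx24. On the log2 scale the fold change was 3.12 (SE 0.97, 95% interval 1.10 to 5.13), an 8.68-fold higher fitted level, with an adjusted p of 0.0746.

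The Fgf21 difference at 24 h crossed the threshold under 5 of the 35 alternatives: without PHx24 6 it was 4.60 (adjusted p = 0.0173), without PHx24_ETO 1 it was 3.23 (adjusted p = 0.0483), and limma on log2(FPKM + 1) gave 2.15 (adjusted p = 0.0269). The other two were limma with a pseudocount of 0.1 (3.81, adjusted p = 0.0319) and a fit with the replicate number as a block (4.08, adjusted p = 0.0473). Without PHx24_ETO 2 it fell to 1.81 (SE 1.0, adjusted p = 0.426). The median of the 4 PHx24_ETO libraries was 5.50 FPKM, against 0.122 FPKM in PHx24.

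In PHx48_ETO, Fgf21 had 1.28, 0.662, 1.36 and 0.722 FPKM. PHx48 libraries 1 to 7 had 0, 0.176, 0.987, 0.325, 0.0617, 0 and 0 FPKM. All but PHx48 3 lay below every PHx48_ETO library, but at these counts (11 to 25 reads in PHx48_ETO and 0 to 19 in PHx48) the log2 fold change was 2.07 (95% interval -0.42 to 4.56) with an adjusted p of 0.706. All 4 PHx48_ETO libraries were below all 4 PHx24_ETO libraries (-3.38, SE 1.21, adjusted p = 0.0589, and -2.07 with an adjusted p of 0.267 without PHx24_ETO 2).

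Without etomoxir, Fgf21 was not called against sham at either time. Sham libraries had 0.497, 0.580, 2.10, 0.0811 and 3.93 FPKM, and the mean was 1.22 ± 2.21 FPKM in PHx24 and 1.44 ± 1.59 FPKM in sham. In PHx48 against sham the log2 fold change was -2.54 (SE 1.13, adjusted p = 0.0816). Leaving out PHx48 3, PHx24 6 or the 4 mixed-tissue libraries brought the adjusted p under 0.05 (0.0267, 0.0483 and 0.0209).

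Gdf15 encodes the stress hormone that acts on the hindbrain receptor GFRAL and that p53 induces as well as ATF4 and CHOP. It had the largest called increase of the 10 genes after resection. PHx24 libraries had 8.13 to 27.2 FPKM with a median of 14.9, and PHx48 libraries 10.3 to 21.2 FPKM with a median of 15.5. Sham libraries had 3.41, 2.72, 3.56, 2.50 and 1.61 FPKM. No resected library overlapped the sham range. The level was 6.11-fold higher in PHx24 (log2 fold change 2.61, SE 0.43, adjusted p = 3.73e-05) and 6.05-fold higher in PHx48 (2.60, SE 0.43, adjusted p = 3.23e-05), each against sham, and both calls held under all 35 alternatives. The difference between PHx48 and PHx24 was smaller than its SE.

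The spread of Gdf15 at 24 h was wider with etomoxir. PHx24_ETO libraries 1 to 4 had 30.4, 73.2, 14.0 and 7.20 FPKM, so that they lay both above and below the PHx24 range. Its log2 fold change was 0.88 (SE 0.39, adjusted p = 0.213), and it was 0.023 without PHx24_ETO 2 (adjusted p = 0.987). PHx48_ETO averaged 18.4 ± 5.75 FPKM and PHx48 16.6 ± 4.29, a difference smaller than its SE.

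**Figure D2:**
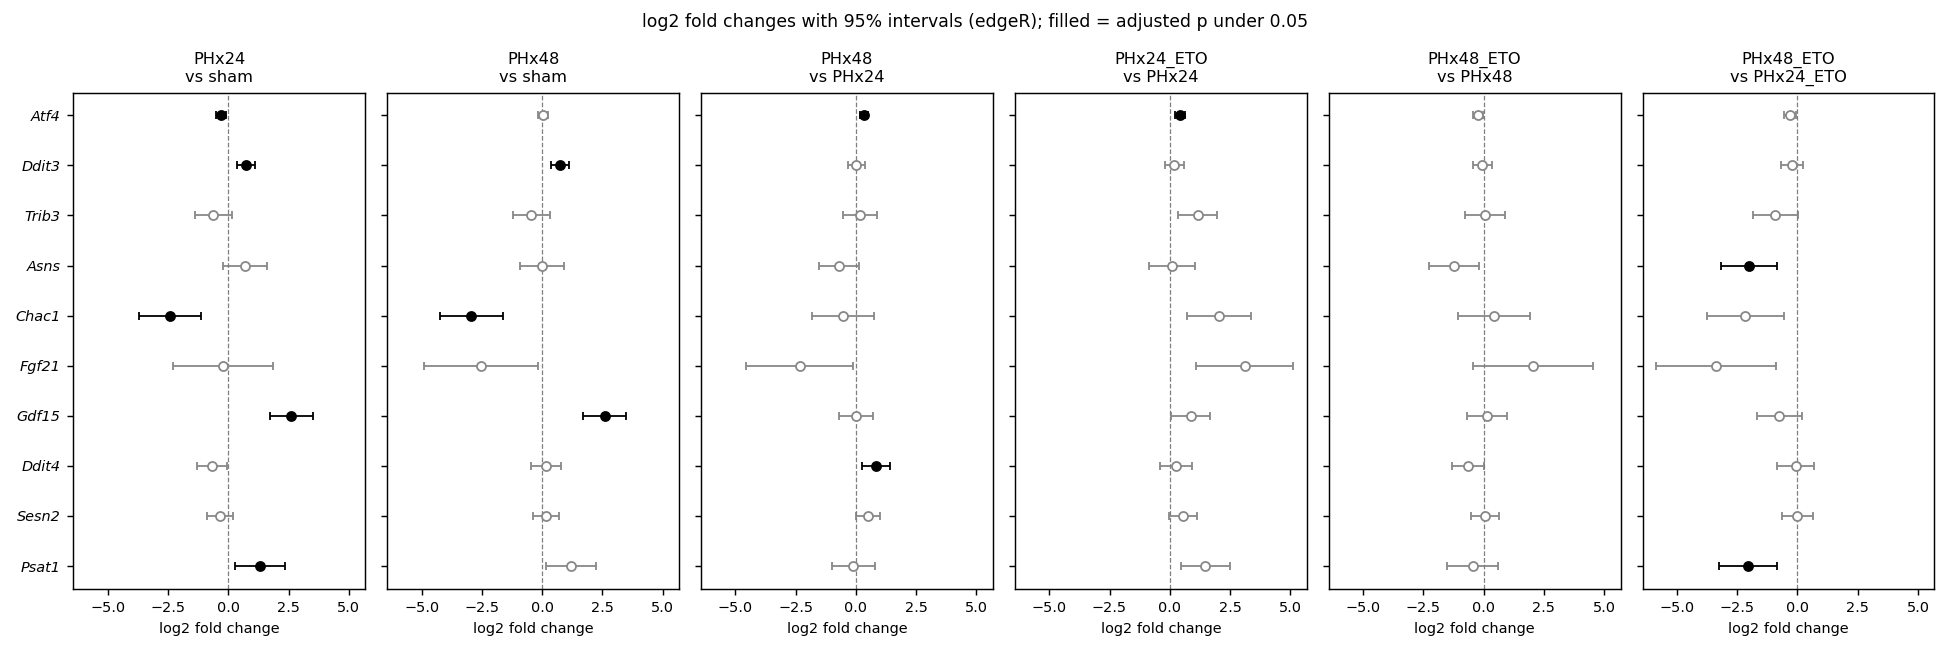
Log2 fold changes (horizontal axis) of the 10 genes (rows) in 6 comparisons (panels), with 95% intervals from edgeR. Filled points have an adjusted p under 0.05. All points lie above 0 in PHx24_ETO against PHx24, but the Fgf21 interval runs from 1.10 to 5.13 and its adjusted p was 0.0746. Without the library PHx24_ETO 2 the Psat1 value there was -0.042.

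Ddit4 and Sesn2 encode inhibitors of the growth kinase mTORC1: REDD1, which glucocorticoids and low oxygen also induce, and Sestrin2, a leucine sensor that p53 and ATF4 induce. Ddit4 had 4.90 to 10.1 FPKM in PHx48 (median 8.97) against 2.30 to 7.31 FPKM in PHx24 (median 4.72). The ranges overlapped, and the log2 fold change was 0.83 (SE 0.27, adjusted p = 0.0492), a call that 15 of 35 alternatives kept, with adjusted p from 0.0210 to 0.103. Leaving out PHx24 3 gave the highest of these. In PHx24 against sham the means were 4.42 ± 1.59 and 7.06 ± 2.66 FPKM (log2 fold change -0.67, SE 0.30, adjusted p = 0.0840). Sham 3 was the lowest sham library at 2.78 FPKM, and without it the difference was -0.89 (adjusted p = 0.0176). It was also past the threshold without PHx24 2 (-0.83, adjusted p = 0.0331).

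With etomoxir, Ddit4 had 2.72, 7.86, 4.87 and 5.94 FPKM in PHx24_ETO, a range that held 6 of the 7 PHx24 libraries, and the difference was smaller than its SE. PHx48_ETO libraries had 5.32, 7.17, 4.57 and 2.95 FPKM, against a PHx48 median of 8.97 FPKM. The fitted difference on the log2 scale was -0.65 (95% interval -1.33 to 0.023) with an adjusted p of 0.623.

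Sesn2 was called in none of the 7 comparisons, as were Trib3 and Fgf21. It averaged 2.91 ± 1.51 FPKM in PHx24_ETO and 1.96 ± 0.300 in PHx24 (log2 fold change 0.55, SE 0.27, adjusted p = 0.267). PHx24_ETO 1 and PHx24_ETO 2, at 3.29 and 4.88 FPKM, lay above the PHx24 range of 1.55 to 2.33 FPKM, and without PHx24_ETO 2 the log2 fold change was 0.19. It averaged 2.88 ± 0.810 FPKM in PHx48_ETO and 2.75 ± 0.648 in PHx48, a difference smaller than its SE.

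**Figure D3:**
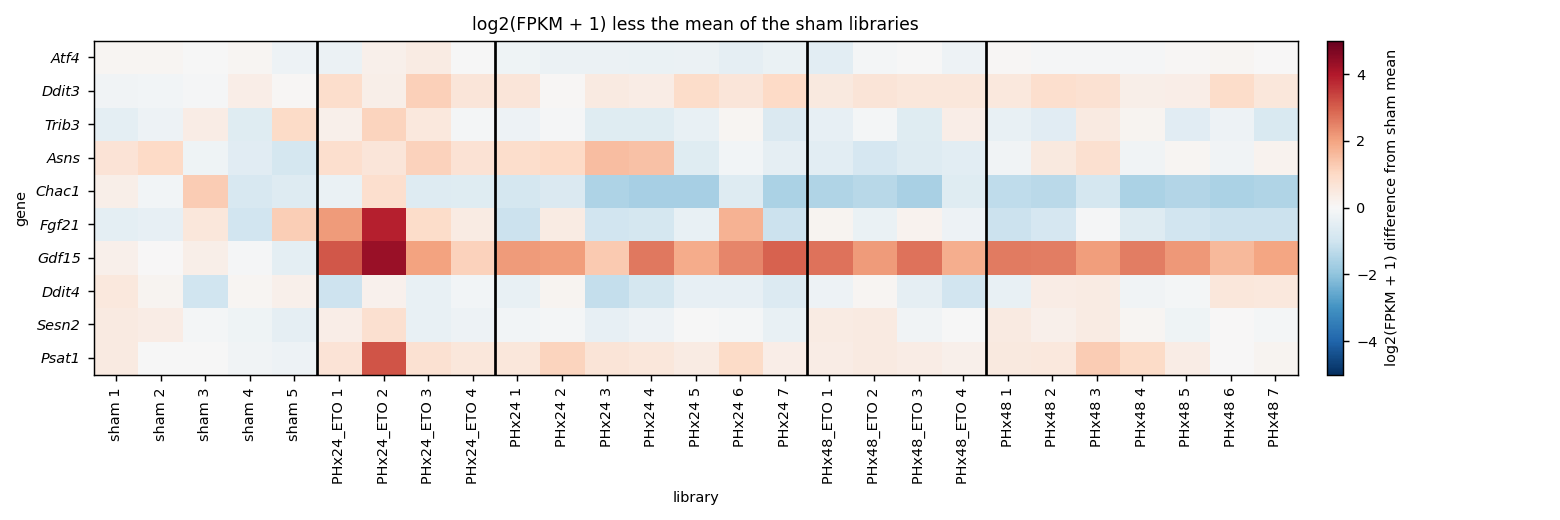
Difference of log2(FPKM + 1) from the mean of the sham libraries (colour) for the 10 genes (rows) in all 27 libraries (columns, black lines between groups). Gdf15 is raised in every resected library and Chac1 is low in most, while Fgf21 and Psat1 are highest in the library PHx24_ETO 2.

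Lists of related genes were counted by the same test. In PHx24_ETO against PHx24, where 1.58% of all genes were higher and 1.33% lower, 4 of 15 endoplasmic reticulum chaperones were higher and none lower, among them Pdia4, a protein disulfide isomerase (log2 fold change 0.74, adjusted p = 0.0117), and Hsp90b1, a chaperone of the HSP90 family (0.66, adjusted p = 0.0185). The median of this list was 0.50. Without PHx24_ETO 2, 7 of 15 were higher. Of 11 other ATF4 targets 2 were higher, Herpud1, a factor of ER-associated degradation (1.0, adjusted p = 0.0263), and the tRNA export factor Xpot (0.34, adjusted p = 0.0386). Of 12 aminoacyl-tRNA synthetases 2 were higher, Wars (0.33, adjusted p = 0.0305) and Nars (0.36, adjusted p = 0.0342), and of 7 amino acid transporters 1 was, the glycine transporter gene Slc6a9 (1.21, adjusted p = 0.0242). Without PHx24_ETO 2 none of these last 3 lists had a called gene.

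Of 9 genes of serine, proline and asparagine related synthesis, the aminotransferase gene Gpt2 was higher (1.12, adjusted p = 0.00430) and the cystathionine lyase gene Cth lower (-1.08, adjusted p = 0.0302) in PHx24_ETO than in PHx24. None of 13 genes for eIF2alpha kinases and ATF4 control, of 10 for bZIP partners, of 10 for mitochondrial stress or of 13 p53 targets was called. The same held for the 4 genes measured among the FGF21 and GDF15 receptors. Among 18 PPARA targets 3 were higher, with Angptl4, a lipase inhibitor (1.63, adjusted p = 0.0166), and Cpt1a, the liver form of the enzyme that etomoxir inhibits (0.75, adjusted p = 0.0175). Their median was 0.66. Among 10 glucocorticoid targets 2 were higher, Zbtb16 (1.67, adjusted p = 0.0153) and Fkbp5 (1.26, adjusted p = 0.0166), and of 10 mTORC1 related genes 1 was, Mtor (0.55, adjusted p = 0.0208). Without PHx24_ETO 2 no PPARA or glucocorticoid target was called.

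Cell type markers were summed for the same libraries. The summed level of 7 Kupffer cell markers was 47.6 to 147 FPKM in PHx24_ETO and 129 to 199 FPKM in PHx24, with 1 of 7 called lower (Cd5l, -1.30, adjusted p = 0.0271). The summed level of 5 erythroid markers was 90.2 to 175 FPKM in PHx24_ETO and 200.4 to 452 FPKM in PHx24, with none called. PHx24_ETO 2 had the lowest sum of both lists. Monocyte markers summed to a median of 11.4 FPKM in PHx24_ETO and 35.3 FPKM in PHx24, and B cell markers to 0.861 and 2.20 FPKM. Only 1 of 6 monocyte and 1 of 5 B cell markers passed the filter and were tested, and neither was called. Of 8 adipocyte markers 1 was called, Plin4, which was higher (2.95, adjusted p = 0.0300). The median over these 8 was -2.38, in the other direction, so Plin4 does not stand for the list. Of 10 hepatocyte markers 2 were higher, Fgb (1.25, adjusted p = 0.00362) and Apoa1 (0.73, adjusted p = 0.0175). Every Kupffer cell, erythroid and hepatocyte marker was detected in all libraries of both groups. Up to 2 of 6 monocyte and 4 of 9 adipocyte markers were at 0 in a library. The part of these lists in the differences of the 10 genes was not tested.

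In PHx48_ETO against PHx48, 6 of 18 PPARA targets were higher, among them Acadm, an enzyme of fatty acid oxidation (0.62, adjusted p = 0.0302), and the pantetheinase gene Vnn1 (1.32, adjusted p = 0.0302). No gene of the other 12 pathway lists was called, against 0.129% of all genes higher and 0.0808% lower. In PHx48_ETO against PHx24_ETO, where 7.73% of all genes were lower and 7.31% higher, 12 of 15 chaperones were lower, with Calr (-1.09, adjusted p = 1.34e-05) and Dnajb11 (-1.11, adjusted p = 6.06e-05). Of 12 aminoacyl-tRNA synthetases 6 were lower, with Sars (-0.49, adjusted p = 0.00194) and Iars (-0.56, adjusted p = 0.00401). Of 7 transporters 4 were lower, with Slc6a9 (-1.56, adjusted p = 0.00279) and Slc3a2, the heavy chain shared by several amino acid exchangers (-0.78, adjusted p = 0.00605). Of 10 bZIP partners 1 was lower, Atf5, a factor related to ATF4 (-1.02, adjusted p = 0.00201). Of 9 genes of serine, proline and asparagine related synthesis 1 was, Mthfd2, a mitochondrial folate enzyme (-1.06, adjusted p = 0.00235). Both shares lie near that of all genes. Without PHx24_ETO 2 the counts of chaperones, synthetases and transporters were 12, 6 and 3. Of 10 glucocorticoid targets 4 were lower (median log2 fold change -1.24), with Pck1, a gluconeogenic enzyme gene (-2.04, adjusted p = 0.00203), and Fkbp5 (-1.54, adjusted p = 0.00234). Of 13 p53 targets 4 were higher, with Mdm2, the ubiquitin ligase gene that restrains p53 (0.58, adjusted p = 0.000739), and Phlda3 (2.55, adjusted p = 0.0195). Without PHx24_ETO 2 these counts were 4 and 3.

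After resection without etomoxir, 19.1% of all genes were called higher and 15.8% were called lower in PHx24, and 19.5% and 17% in PHx48, each against sham. Of 15 chaperones 11 were higher in PHx24, with Calr (0.78, adjusted p = 1.62e-05) and Dnajb11 (0.81, adjusted p = 5.46e-05). In PHx48 4 of 15 were, a share near that of all genes. The stress factor gene Atf3 was higher in PHx24 (2.33, adjusted p = 0.00172) and in PHx48 (3.32, adjusted p = 5.09e-05). Of 7 transporters 2 were higher and none lower in PHx24, and 1 was higher and 2 lower in PHx48. Slc1a4 was higher at both times (2.05 and 2.40, adjusted p = 1.3e-06 and 1.02e-07), whereas Slc6a9 (-1.07, adjusted p = 0.00363) and Slc38a2 (-0.43, adjusted p = 0.0481) were lower in PHx48. Mthfd2 was higher at both times (1.56 and 1.03, adjusted p = 2.16e-06 and 0.000193). Cdkn1a, the CDK inhibitor gene counted among other ATF4 targets, was higher too (1.84 and 2.31, adjusted p = 6.59e-05 and 3.87e-06). Of the 11 genes of that list 3 were higher and 3 lower in PHx24, and 2 higher and 3 lower in PHx48. Map1lc3b, an autophagy gene of the list, was lower at both times (-0.82 and -0.74, adjusted p = 1.79e-05 and 5.05e-05), as was Cebpa, a C/EBP factor gene of hepatocytes (-1.46 and -0.87, adjusted p = 1.85e-06 and 0.000554). Of 13 p53 targets 6 were higher and 3 lower in PHx24, and 8 were higher and 1 lower in PHx48, beside the higher Gdf15. The share that was lower in PHx24 is near that of all genes. Both comparisons share the sham libraries.

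Cell type markers differed from sham too. Of 8 sinusoidal endothelial markers 3 were lower in PHx24 and 6 in PHx48, and of 10 hepatocyte markers 5 and 4 were lower, with 1 higher in PHx24. Of 7 Kupffer cell markers 1 was lower in PHx24 and 3 in PHx48, and Marco was higher at both times (3.60 and 2.89, adjusted p = 6.36e-06 and 4.91e-05). Both neutrophil markers tested, S100a8 and S100a9, were higher in PHx24 (3.32 and 2.83, adjusted p = 0.0013 and 0.00244), and neither was called in PHx48. Only these 2 of 7 neutrophil markers passed the filter. The sum of the 7 was 86.5 FPKM in PHx24 2, far above the PHx24 median of 8.50 FPKM, and 1.57 to 6.34 FPKM in sham. The 9 adipocyte markers summed to 58.2 to 181 FPKM in PHx24 and 121 to 500.1 FPKM in PHx48, against 975 to 1590 FPKM in sham. Of the 8 tested, 1 was called lower at each time and none higher, a share near that of all genes. It was Car3 both times (-3.60 and -2.15, adjusted p = 1.47e-05 and 0.00198). Car3 is itself among the 9 summed, and its part in the sums was not separated. Up to 2 of the 9 markers were at 0 in a sham library, so a high sum can rest on few of them. Sham 5, with 2 at 0, still summed to 1588 FPKM. The sums are therefore not a measure of fat cells. The part of these markers in the differences of the 10 genes from sham was not tested.

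The 10 genes were also compared across libraries, after the group means had been removed, over 45 pairs. Trib3 and Fgf21 moved together most closely: Pearson's r was 0.715 (permutation p = 9e-05, adjusted p = 0.00405) and Spearman's rho 0.620 (permutation p = 0.0019, adjusted p = 0.0428) over 27 libraries. Without the libraries farthest from the median of Trib3, sham 5 and PHx48 3, r was 0.669. Sesn2 and Psat1 were the other pair past the threshold by both measures, with an r of 0.649 (permutation p = 0.00173, adjusted p = 0.0389) and a rho of 0.586 (permutation p = 0.00179, adjusted p = 0.0428). Without sham 1 and PHx24_ETO 2 their r was 0.463. Ddit3 and Psat1 had the lowest r of all pairs (-0.549, permutation p = 0.0174, adjusted p = 0.122). No other pair passed the threshold.

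**Figure D4:**
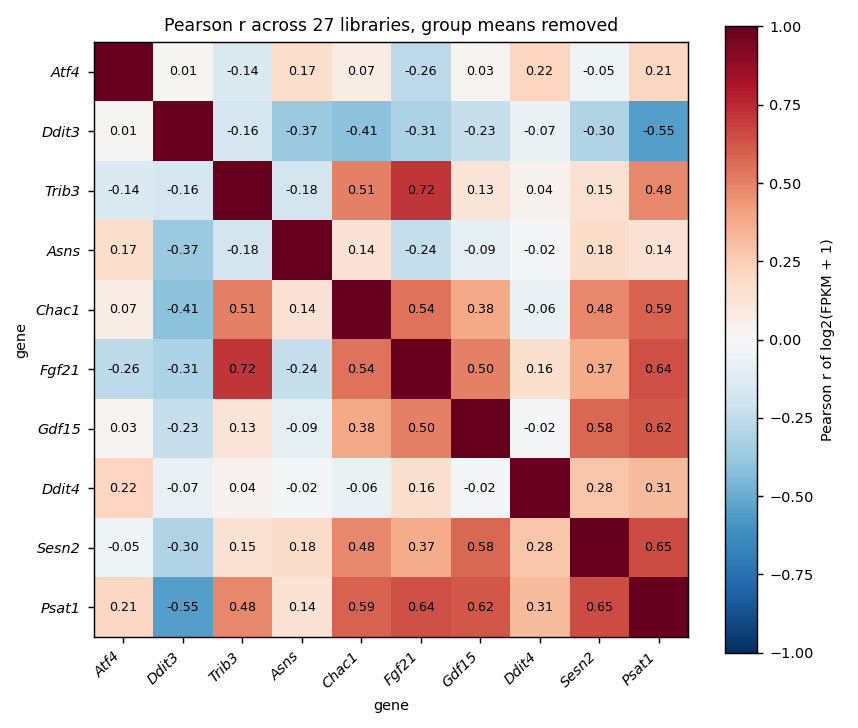
Pearson's r (colour and numbers) of log2(FPKM + 1) between each pair of the 10 genes (both axes) over 27 libraries with the group means removed. Trib3 with Fgf21 (0.72) is the highest, and Ddit3 has its lowest value with Psat1 (-0.55).

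Over all 27 libraries, group differences included, the tested gene most like Trib3 in log2(FPKM + 1) was Fgf21 itself (r = 0.778). The 3 genes most like Fgf21 were Strbp (r = 0.827), March5 (r = 0.805) and Cln8 (r = 0.805). The closest gene was Tnip1 for Psat1 (r = 0.912), Eftud2 for Gdf15 (r = 0.865), Atg2a for Chac1 (r = 0.825), Gpr107 for Sesn2 (r = 0.824) and Prg4 for Ddit3 (r = 0.823). It was Pigs for Asns (r = 0.799), C4a for Atf4 (r = 0.747) and Hfe2 for Ddit4 (r = 0.664). These values are descriptions over libraries of shared groups, and were chosen as the highest among 12376 genes.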

How the data were processed

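Polyadenylated RNA of liver was sequenced after library preparation with a kit that leaves strand unmarked, per the labels' protocols. Tools listed in the submitters' processing notes are HISAT2 2.0.5, CASAVA 1.8, DESeq2 1.20.0, fastp and featureCounts 1.5.0-p3, and the genome builds listed are mm10 and GRCm38. What each tool did is not given in the sources used here. Raw read counts by gene and library were deposited, beside FPKM that the authors computed from them. Checked on the table, the FPKM were scaled by size factors in place of library totals.

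The filter kept genes that reached an FPKM of 1 in 4 or more libraries. Their counts were tested with edgeR 4.0.16 in R 4.3.3 (TMM scaling, quasi-likelihood test, 1 fit of 27 libraries and 5 groups). The SE is the log2 fold change divided by the square root of F, and intervals use 22 residual degrees of freedom. The alternatives were DESeq2 1.42.0, limma 3.58.1 on log2(FPKM + pseudocount of 1 or 0.1), library totals, no filter, a replicate block, the groups of a comparison alone and leaving out each library. For each comparison the 35 alternatives so include leaving out libraries of groups outside it. Counts out of 35 therefore overstate how many alternatives could change a call. Data were simulated for PHx24_ETO against PHx24 over 12376 genes. There edgeR called 64 of 100 genes changed by 1 and 94 of 100 changed by 2 on the log2 scale, with 4 false calls. The common biological coefficient of variation in edgeR was 0.266. In PHx24_ETO the SD of the FPKM was 122% of the mean for Fgf21, 130% for Psat1 and 79.5% for Chac1, against 20.6% for Atf4. The simulated shares therefore cannot be read as the chance of a call for such widely spread genes.

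Correlations used 100000 permutations. The 10 genes and all lists were chosen with earlier results of these data known. From each other list, up to 2 called genes with the smallest adjusted p were eligible to be named per comparison. Slc38a2, and Cebpa in PHx48, lie outside this rule and were chosen after their values were seen. Symbols are the table's, save March5, which was named from its gene ID.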

Additional observations from a re-analysis of the deposited data

Results flagged for a closer look

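Within groups, a library stood apart from the others of its group in 6 of 50 tests (10 genes in 5 groups). The cutoff gives about 1 in 20 by chance for normally distributed values only. It was applied to FPKM, which are skewed for some of these genes, and all 6 were the highest value of their group. That rate therefore cannot be set against the 6, and the 50 tests share libraries. Chac1 (5.37 FPKM) and Psat1 (13.0 FPKM) stood apart in PHx24_ETO 2. In PHx48 3, a library with skeletal muscle and exocrine pancreas transcripts, Chac1 (0.935 FPKM) and Fgf21 (0.987 FPKM) did. Fgf21 stood apart in PHx24 6 (6.02 FPKM), and Psat1 in sham 1 (1.21 FPKM), which also held skeletal muscle transcripts. The part of those transcripts in these levels was not tested.

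Atf4 was flagged by a rule that asks for etomoxir libraries on opposite sides of the means without etomoxir at the 2 times. All 4 PHx48_ETO libraries were below the PHx48 mean and all 4 PHx24_ETO libraries above the PHx24 mean. Of these, PHx24_ETO 1 (46.0 FPKM) lay within the PHx24 range and PHx48_ETO 3 (55.2 FPKM) within the PHx48 range. The effect at 48 h alone had an adjusted p of 0.581 by edgeR. The difference of the effects was -0.65 on the log2 scale, with an adjusted p of 0.206 by edgeR, 0.0187 by DESeq2 and from 0.00377 to 0.414 over the alternatives.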

How the results depend on the processing

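Of 70 differences (10 genes in 7 comparisons) 23 were smaller than their SE, and no alternative took any of these past the threshold. Of 1645 alternative values of the other 47, 1541 kept direction and side of the threshold, 59 lost the call, 41 gained one and 4 changed sign. The changes of sign were Sesn2 in PHx24 against sham without the 4 mixed-tissue libraries (0.086, an alternative chosen after seeing the data), and, without PHx24_ETO 2, Psat1 in PHx24_ETO against PHx24 (-0.042, with a range of -0.042 to 1.78 over single libraries left out), Gdf15 in PHx48_ETO against PHx24_ETO (0.099, range -1.08 to 0.099) and Gdf15 in the difference of etomoxir effects (0.11, range -1.07 to 0.11).

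In PHx24 against sham, 1 in place of 2 genes was lower with library totals, with no filter and without the 4 libraries, and leaving out single libraries gave 2 to 3 lower and 2 to 3 higher. Under the first 3 of these, 34.2%, 14.1% and 28.2% of all genes were called, against 35% in the main edgeR fit. In PHx48 against sham, without the 4 libraries 1 in place of 2 genes was higher and 2 in place of 1 lower. It was also 2 lower with the groups of the comparison alone, and 1 to 2 lower leaving out single libraries. Of all genes, 28.8% were called without the 4 libraries and 36.8% with the groups alone, against 36.5%. In PHx48 against PHx24, 1 in place of 2 genes was higher with limma at a pseudocount of 0.1 and without the 4 libraries, 0 with no filter, and 1 to 2 leaving out single libraries. The share of all genes was 11.2% with that limma fit, 9.52% without the 4 libraries and 3.33% with no filter, against 11.6%. In PHx24_ETO against PHx24, where 1 was higher, it was 3 with DESeq2 (Atf4, Chac1 and Psat1), 2 with limma at a pseudocount of 1, 3 at 0.1, and 0 with library totals, no filter or the 2 groups alone. In this order the share of all genes called was 6.17%, 3.32%, 4.12%, 2.19%, 0.643% and 0%, against 2.9%. Leaving out single libraries gave 0 to 4 (0 without PHx24 3, PHx24 4, PHx24_ETO 2 or PHx24_ETO 3, and 4 without PHx24_ETO 1). Without PHx24_ETO 1, 9.71% of all genes were called. In PHx48_ETO against PHx24_ETO, where 2 were lower, DESeq2 gave 4, the groups alone 1, and PHx24_ETO 2 left out 1. There 17.6%, 5.01% and 14.7% of all genes were called, against 15%. In the difference of etomoxir effects, 1 in place of 0 was lower with DESeq2 and without PHx24_ETO 1 (range 0 to 1). The shares of all genes were 0.339% and 1.94%, against 0.0162%. The cause was not tested.

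Same-numbered libraries were mostly not alike. Over 45 such pairs r was -0.232 to 0.655 with a median of 0.0202, and 13 exceeded 0.1. Only 5 of 27 libraries correlated best with their own number among other groups. These correlations do not test a trend along the numbers. The number of genes with a count fell step by step from 21763 in sham 1 to 18981 in sham 5. It fell likewise from 20341 to 19482 in PHx24_ETO and from 21631 to 19956 in PHx48_ETO. In PHx24 and PHx48 it ended lower too, but rose at some steps. Beyond the replicate block, the part of this order in the gene levels was not tested. With the replicate block, Atf4 in PHx24_ETO against PHx24 was 0.37 (adjusted p = 0.0859), Fgf21 4.08 (adjusted p = 0.0473), Ddit4 in PHx24 against sham -0.76 (adjusted p = 0.0483), Psat1 in PHx48 against sham 1.36 (adjusted p = 0.0370), and 1 gene in place of 2 was lower in PHx48_ETO against PHx24_ETO (Psat1 lost, adjusted p = 0.0504). It changed no other call.

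Scaling to library totals moved the median log2 fold change of all genes to 0.11 in PHx24 against sham, 0.23 in PHx48 against sham and 0.11 in PHx48 against PHx24. Counts of 0 to 87 reads limit Fgf21 in resected livers without etomoxir, and 4 to 36 reads limit Chac1 in PHx24, PHx48 and PHx48_ETO.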
